A study of Mus musculus with 2 samples.

Results

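The chemokine receptors described here are Cxcr3, Ccr10, Ccr2, Ccr4, Ccr6, Ccr8, Cxcr5 and Cxcr6, 8 of the 32285 genes listed. They were examined in splenic regulatory T cells (Tregs) and named by symbol. They were chosen by their measured UMI levels in the WT and KO barcodes and by T cell state, so these levels are a description and no test was made on them. Each genotype, WT and KO, is held by 1 library from C57BL/6J mice that were 7 days old. KO mice were Zfp335fl/flFoxp3-Cre, in which Cre made by Foxp3-expressing cells removes the floxed zinc finger gene Zfp335. Per the study's methods, WT mice carried Foxp3-Cre as well, so that both libraries share the Cre and its YFP reporter. Live YFP+ cells were sorted and run on a droplet platform that tags the 3′ end of transcripts. How many mice were pooled into each library is not stated, and there is no second library of either genotype.

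Chemokine receptors are G protein-coupled receptors that steer migrating cells up gradients of small secreted proteins, the chemokines. Resting T cells use receptors that lead them to lymph nodes, whereas activated and effector T cells, Tregs among them, take up receptors that lead them to inflamed sites, skin, gut, lung or B cell follicles. In Tregs these receptors are commonly used to tell subsets apart, because each follows a different programme of activation.

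Cxcr3 binds the interferon-induced chemokines Cxcl9 and Cxcl10. Ccr2 binds monocyte chemoattractants such as Ccl2, and Cxcr6 binds Cxcl16. Ccr4 binds Ccl17 and Ccl22, Ccr8 binds Ccl1, and Ccr10 binds Ccl27 and Ccl28 of skin and mucosa. Ccr6 binds Ccl20, and Cxcr5 binds Cxcl13 of B cell follicles. On the GRCm38 build, Cxcr3 lies on chromosome X (101731535 to 101734269, minus strand), Ccr10 on chromosome 11 (101172997 to 101175443, minus) and Ccr6 on chromosome 17 (8236043 to 8257141, plus). The other 5 lie on chromosome 9: Cxcr5 (44511787 to 44561877, minus), Ccr4 (114490316 to 114504916, minus), Ccr8 (120092114 to 120094906, plus), Cxcr6 (123806475 to 123811760, plus) and Ccr2 (124101950 to 124113557, plus). Ccr10, Cxcr5 and Cxcr6 overlap Cntnap1, Bcl9l and Fyco1 on the other strand, and the use of strand in counting is not given in the sources used here. The KO to WT ratios of Bcl9l and Fyco1 over T-lineage barcodes were 0.640 and 0.792, and Cntnap1 had 9 UMIs in WT and 0 in KO.

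Promoter sequences of RefSeq (GRCm38.p6, 250 bases before to 50 bases after the start) were matched for 6 of the 8 genes, and Ccr10 and Cxcr5 were not matched. Of these, 3 are shown as examples. Cxcr3 stands for genes of the WT effector and cycling states, and Ccr8 for a gene whose KO to WT interval covered 1. Ccr4 stands for a gene with a larger share of its WT UMIs in activated barcodes than Cxcr3, 8.53% against 4.95%. Cxcr3 had more UMIs there (161 against 78), and both shares lay below the 12.2% of all WT T-lineage UMIs in that cluster. Capitals mark every match on either strand to 4 motifs. The T-box core was searched as TCACACC, and the AP-1 motif was searched as TGANTCA. For GATA factors the letters were AGATAA, and for RUNX factors they were TGTGGT.
Cxcr3, chrX:101734098-101734397, minus strand: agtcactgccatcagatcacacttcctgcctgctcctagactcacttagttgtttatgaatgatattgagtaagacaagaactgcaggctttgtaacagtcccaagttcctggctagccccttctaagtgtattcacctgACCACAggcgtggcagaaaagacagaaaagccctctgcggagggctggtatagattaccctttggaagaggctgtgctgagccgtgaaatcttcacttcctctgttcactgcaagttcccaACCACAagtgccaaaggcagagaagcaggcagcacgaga
Ccr4, chr9:114496495-114496794, minus strand: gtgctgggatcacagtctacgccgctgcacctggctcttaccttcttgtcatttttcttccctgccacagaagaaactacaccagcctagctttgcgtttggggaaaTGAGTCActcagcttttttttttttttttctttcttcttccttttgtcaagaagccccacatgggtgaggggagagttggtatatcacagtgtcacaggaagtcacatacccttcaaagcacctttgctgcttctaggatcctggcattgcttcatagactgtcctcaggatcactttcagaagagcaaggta
Ccr8, chr9:120091883-120092182, plus strand: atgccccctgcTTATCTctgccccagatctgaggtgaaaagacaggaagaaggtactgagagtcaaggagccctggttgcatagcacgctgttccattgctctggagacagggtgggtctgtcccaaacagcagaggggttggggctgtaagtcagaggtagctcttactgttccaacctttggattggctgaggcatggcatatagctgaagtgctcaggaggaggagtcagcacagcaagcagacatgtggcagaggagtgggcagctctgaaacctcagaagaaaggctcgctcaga
Cxcr3 held 2 RUNX matches, Ccr4 held 1 AP-1 match and Ccr8 held 1 GATA match. None of the 7 promoter windows of the 6 genes held a T-box match. Among 32851 promoters of the same length, 16.8% held the RUNX letters, 7.81% the AP-1 letters, 11.2% the GATA letters and 3.98% the T-box letters. These are letter matches only, and the windows follow RefSeq starts, which for Ccr4 lies inside the longer gene model given above.

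The matrices held 14524 WT and 18134 KO barcodes, of which 8053 and 13767 had 300 genes or more and a mitochondrial share of 5% or less. After removal of likely doublets, 7826 WT and 12779 KO barcodes remained, with medians of 5056 and 2717 unique molecular identifiers (UMIs). The libraries held 64567991 UMIs in WT and 65480052 in KO, and 70 barcode sequences occurred in both. Clusters with T cell genes, called T-lineage here, held 7289 WT and 12076 KO barcodes. Zfp335 served as the check of the labels, with 387 UMIs in WT and 40 in KO T-lineage barcodes, or 8.25 and 0.822 CPM (UMIs of a gene per 1000000 UMIs). Foxp3, the factor that defines Tregs, had 40.7 and 44.3 CPM. In the same barcodes the erythroid gene list summed to 460 CPM in WT and 3313 CPM in KO, and the neutrophil list to 314 and 804 CPM, with every gene of both lists above 0. The part of these lists in the results was not tested.

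Of the T-lineage clusters, 5 were named from markers. The resting Treg-like cluster (8 of 9 markers raised, led by Ly6c1 and Dapl1) held 2305 WT and 4816 KO barcodes. The effector Treg-like cluster (12 of 12 markers, led by S100a4, S100a6 and Klrg1) held 1626 WT and only 63 KO barcodes, so it is almost wholly a WT cluster. The activated Treg-like cluster held 506 and 968 barcodes. It had 4 of 8 activated and 4 of 10 S-phase markers raised, and Asns, Srm and Nefh led it. The S-phase cycling-like cluster held 555 and 695 barcodes, and the mitotic cycling-like cluster 620 and 344. Effector markers were also raised in both cycling clusters, 6 of 12 and 12 of 12. The other 5 T-lineage clusters stayed unnamed. Their barcodes were shallow (medians of 790 and 1319 UMIs in WT and KO), and they held 23.0% of WT and 43.0% of KO T-lineage barcodes.

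Over all T-lineage barcodes, 6 of the 8 receptors were at least 2-fold lower in KO than in WT: Cxcr3, Ccr10, Ccr2, Ccr4, Cxcr5 and Cxcr6. Ccr6 was lower by less, and Ccr8 did not differ beyond its counting interval. Summed over the 8 genes, WT held 6915 UMIs or 147 CPM (144 to 151) and KO 1038 UMIs or 21.3 CPM (20.1 to 22.7), a KO to WT ratio of 0.145 (0.135 to 0.155). Of all 12122 genes with at least 50 UMIs over both libraries, 5.52% were at least 2-fold lower in KO. Nothing is read from this comparison of 6 of 8 with the background, or from the counts by state below, since these values chose the genes. Intervals are exact 95% intervals for counting error, and with 1 library per genotype they say nothing of the spread between mice. They treat UMIs as independent, so they are too narrow where a few barcodes hold several UMIs each.

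Cxcr3 was the most abundant of the 8 by UMIs. WT barcodes held 3254 Cxcr3 UMIs, 69.4 CPM (67.0 to 71.8), against 235 in KO, 4.83 CPM (4.23 to 5.49), which gives a ratio of 0.0696 (0.0607 to 0.0795). Ccr2 had 26.3 CPM in WT and 2.24 in KO, a ratio of 0.0851 (0.0693 to 0.104). The Ccr2 ratio was 0.1301 as a mean over barcodes and 0.139 on thinned sums. Ccr4 had 19.5 and 2.61 CPM, a ratio of 0.134 (0.110 to 0.161). These 3 receptors, which serve entry into inflamed tissue and skin, were the highest of the 8 in WT T-lineage barcodes.

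Cxcr6, a receptor of tissue-resident lymphocytes, had 10.2 CPM in WT and 2.88 in KO, a ratio of 0.281 (0.231 to 0.340). Cxcr5, the follicle-homing receptor, had 8.23 and 2.30 CPM, a ratio of 0.280 (0.225 to 0.346). The ratios of Cxcr5 and Cxcr6 do not differ beyond their intervals, and neither do those of Cxcr3 and Ccr2.

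Ccr10 had 237 UMIs in 123 WT barcodes, or 5.05 CPM (4.43 to 5.74). Not 1 UMI was found in 12076 KO barcodes, a count that leaves room for up to 0.0617 CPM. Against this limit of 3 UMIs over all KO T-lineage barcodes it was at least 81.9-fold lower in KO. One WT barcode held 21 of the 237 UMIs. Among barcodes removed for over 5% mitochondrial UMIs, Ccr10 had 18 UMIs in WT and 1 in KO, so the gene was not without counts in the KO library.

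Ccr6 counts were 302 in WT, 6.44 CPM (5.73 to 7.21), against 219 in KO, 4.50 CPM (3.92 to 5.14), with a ratio of 0.699 (0.585 to 0.835). For Ccr8 they were 107 and 96, or 2.28 (1.87 to 2.76) and 1.97 CPM (1.60 to 2.41), with a ratio of 0.865 (0.650 to 1.15). In WT the order by CPM was Cxcr3, Ccr2, Ccr4, Cxcr6, Cxcr5, Ccr6, Ccr10 and Ccr8, and of neighbours in it only the intervals of Ccr6 and Ccr10 overlapped. The KO order was another, with Cxcr3 and Ccr6 highest and not separated by their intervals, and Ccr4, Ccr2, Cxcr5 and Ccr8 between 1.97 and 2.61 CPM with overlapping intervals. UMIs of a 3′ assay are not scaled by length, and gene order by CPM assumes equal capture of each 3′ end.

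**Figure D1:**
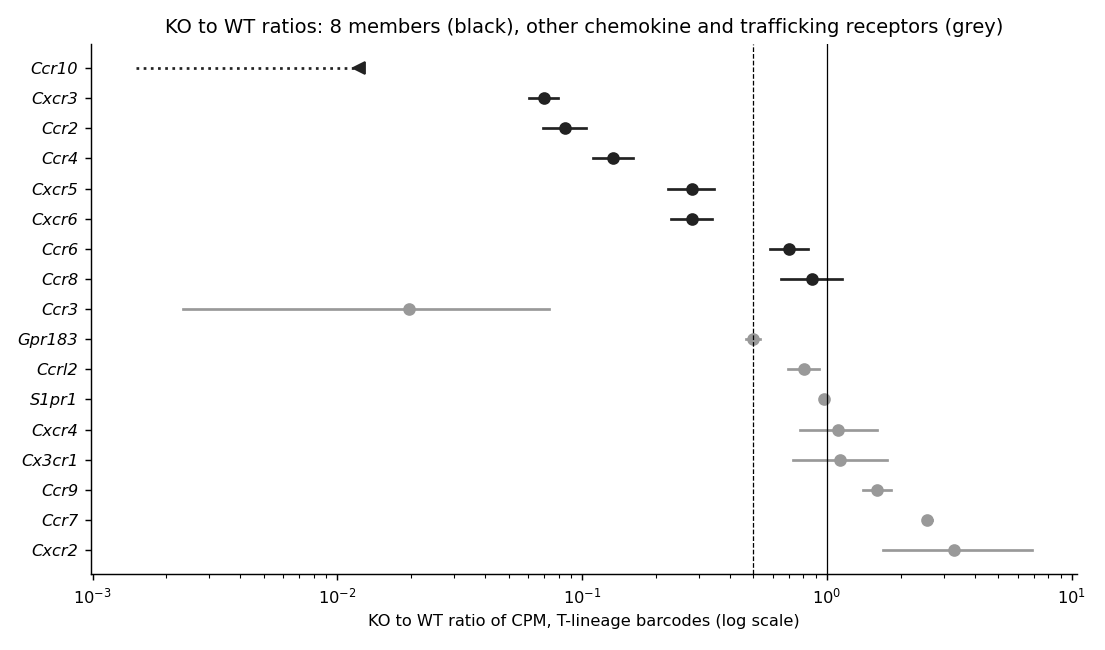
KO to WT ratios of CPM over T-lineage barcodes on a log axis, with the 8 receptors in black, other named receptors with at least 50 UMIs in grey, exact 95% counting intervals as lines, solid and dashed lines at equal level and at 2-fold lower, and the Ccr10 arrowhead at 81.9-fold lower, the bound set by the limit of 3 KO UMIs. The 7 receptors with KO UMIs run from 0.0696 for Cxcr3 to 0.865 for Ccr8.

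The KO barcodes were shallower than the WT ones, so the shares of barcodes with a UMI were also taken at equal depth. With every barcode thinned to 1000 UMIs, a UMI of any of the 8 genes was found in 638 of 6228 WT barcodes, 10.2% (9.50 to 11.02), and in 189 of 11010 KO barcodes, 1.72% (1.48 to 1.98). The difference was -8.53 percentage points (-9.34 to -7.75). Thinning left out 1061 WT and 1066 KO barcodes, and without it the shares were 33.4% and 5.598%. The erythroid-like barcodes, where none of these receptors is expected, had a UMI in 0.844% (0.102 to 3.02) of WT and 0.688% (0.142 to 2.00) of KO barcodes at 1000 UMIs. Their median depths were 4298.5 and 2597 UMIs, against 4989 and 2676.5 for T-lineage barcodes. They also held T cell RNA. The list of 7 T cell genes summed to 868 CPM in WT and 1556 in KO, against 6821 and 6253 in T-lineage barcodes. The part of this RNA in the erythroid-like levels was not tested. At 1000 UMIs the KO T-lineage share lay within the wide interval of the KO erythroid-like share. Without thinning the erythroid-like shares were 6.69% (4.08 to 10.3) in WT and 1.93% (0.885 to 3.63) in KO, both below the T-lineage shares.

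By gene, Cxcr3 was found in 4.77% (4.25 to 5.33) of WT and 0.409% (0.298 to 0.546) of KO T-lineage barcodes at 1000 UMIs, and in 17.0% and 1.14% without thinning. Ccr2 was found in 2.42% and 0.2997%, Ccr4 in 1.45% and 0.191%, Cxcr5 in 0.819% and 0.163%, and Cxcr6 in 0.514% and 0.236%. For Ccr6 the shares were 0.546% (0.378 to 0.762) and 0.372% (0.267 to 0.505), a difference of -0.174 points (-0.411 to 0.0303). For Ccr8 they were 0.161% and 0.0908%, a difference of -0.0697 points (-0.211 to 0.0361). In KO erythroid-like barcodes each gene was found in 0 or 1 of 436 barcodes at this depth, too few to place single KO shares against them. By CPM, KO T-lineage Cxcr3 lay above the KO erythroid-like level of 0.845 CPM (0.102 to 3.05), and Ccr6 above 0.422 CPM (0.0107 to 2.35). At 1000 UMIs, 2 or more of the 8 genes were found together in 47 WT and 4 KO barcodes.

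The receptors split by state within WT. The effector, mitotic and S-phase clusters held 25.1%, 16.3% and 19.7% of all WT T-lineage UMIs, and the activated cluster held 12.2%, which is the base for the shares that follow. The effector, mitotic and S-phase clusters gave 33.5%, 30.1% and 26.5% of the WT Cxcr3 UMIs, and 41.8%, 23.2% and 27.0% of the Ccr10 UMIs. For Ccr2 the effector cluster gave 56.4%, and for Cxcr5, the follicle-homing receptor, 46.9%. The activated cluster gave 40.2% of the WT Ccr8 UMIs and 28.8% of the Ccr6 UMIs, and the effector cluster gave 21.5% and 32.8%.

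In KO, where the effector cluster held 0.861% of the T-lineage UMIs, the sources differed by gene. The resting, activated, S-phase and mitotic clusters held 42.1%, 19.0%, 15.4% and 5.72% of these UMIs, and unnamed cluster 2 held 13.8%. Resting barcodes thus gave less of the KO Ccr6, Cxcr5 and Ccr4 UMIs than of all KO UMIs. Mitotic, effector and S-phase barcodes still gave 27.2%, 16.6% and 14.9% of the KO Cxcr3 UMIs. Activated and resting barcodes gave 37.0% and 28.3% of the KO Ccr6 UMIs, 34.8% and 29.5% of the Cxcr5 UMIs, and 25.2% and 29.9% of the Ccr4 UMIs. Activated barcodes gave 48 of the 96 Ccr8 UMIs. The largest part of the KO Cxcr6 UMIs, 37.9%, came from the S-phase cluster. For Ccr2 it was unnamed cluster 2, with 35.8%, a cluster whose leading genes include the myeloid genes Mpo and Prtn3. Ccr2 had 5.81 CPM there in KO. In the myeloid progenitor-like cluster it had 264 UMIs or 130 CPM in WT and 239 UMIs or 116 CPM in KO, a ratio of 0.887 (0.741 to 1.06). The part of myeloid RNA in the KO Ccr2 counts was not tested.

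**Figure D2:**
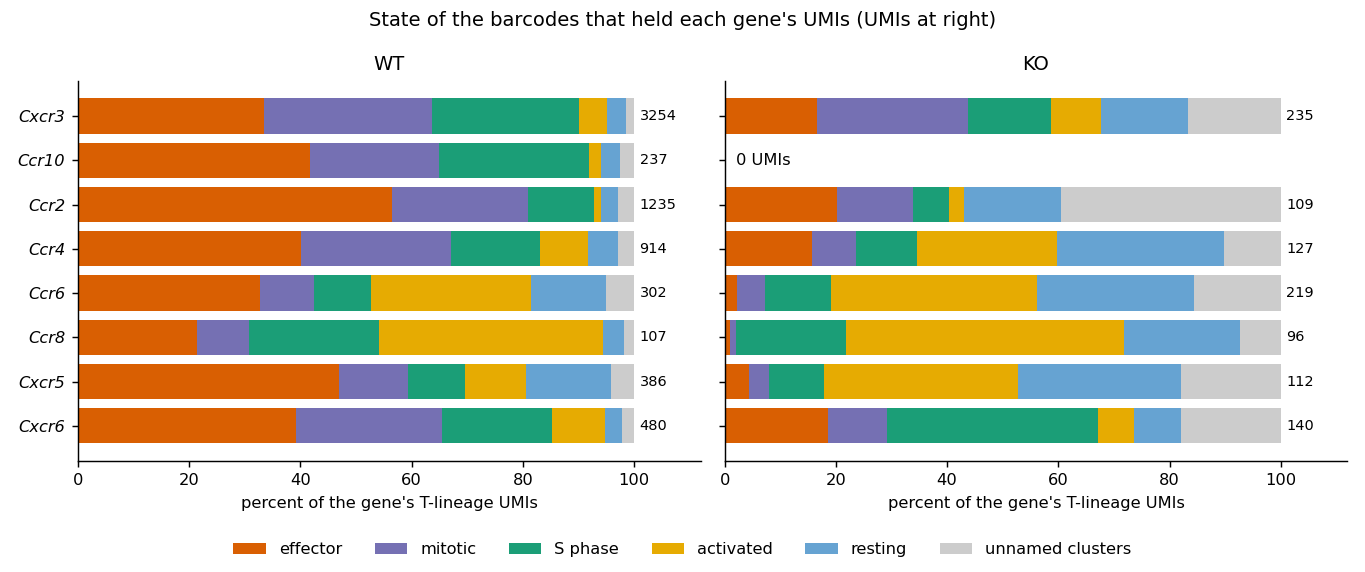
Percent of each receptor's T-lineage UMIs by the state of the barcodes that held them, in WT (left) and KO (right), with the number of UMIs at the end of each bar. Effector, mitotic and S-phase barcodes fill most of the WT bars of Cxcr3, Ccr10 and Ccr2. Of all WT T-lineage UMIs these states held 25.1%, 16.3% and 19.7%. Activated and resting barcodes fill most of the KO bars of Ccr6, Ccr8 and Cxcr5. Of all KO T-lineage UMIs these held 19.0% and 42.1%. Ccr10 has 0 KO UMIs.

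Within the effector Treg-like state, Cxcr3, Ccr2, Ccr4, Ccr6 and Cxcr5 did not differ between WT and KO beyond their intervals. Cxcr3 stood at 92.5 CPM (87.1 to 98.2) in WT, from 1089 UMIs, and at 93.1 CPM (66.2 to 127) in KO, from 39, with a ratio of 1.01 (0.711 to 1.38). A Cxcr3 UMI was present in 464 of 1626 WT barcodes and in 18 of 63 KO barcodes, 28.5% and 28.6%, at median depths of 6682.5 and 5320 UMIs. Ccr2 had 59.2 and 52.5 CPM, a ratio of 0.887 (0.552 to 1.35). Ccr4 had 31.2 and 47.7 CPM, a ratio of 1.53 (0.924 to 2.40). For Ccr6 the counts were 99 and 5, with a ratio of 1.42 (0.451 to 3.42). For Cxcr5 they were 181 and 5, with a ratio of 0.776 (0.249 to 1.84), and for Ccr8 23 and 1. With 63 KO barcodes these intervals are wide, and they do not show that the levels are alike.

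Ccr10 had 99 UMIs in WT effector-like barcodes, 8.41 CPM (6.84 to 10.2), and 0 in KO, where that count allows a level of up to 7.16 CPM. This lies within the WT interval, so a difference was not detectable there at this depth. Cxcr6 was higher in KO, at 62.1 CPM (40.5 to 90.9) from 26 UMIs against 16.0 CPM from 188 in WT, with a ratio of 3.88 (2.47 to 5.87). The 26 KO UMIs lay in 5 of 63 barcodes, and 1 barcode held 14 of them. Without it the ratio was 1.88 (0.953 to 3.36). The shares of barcodes with a Cxcr6 UMI were 7.01% in WT and 7.94% in KO. Of all 8997 genes counted in this cluster, 11.4% were at least 2-fold lower in KO. By the same rule 1 of the 7 receptors counted there was, Ccr10, whose count of 0 could not place its level. The 11.4% is likewise not limited to genes with KO UMIs.

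The KO effector-like barcodes were not like the WT ones in other genes. Klrg1, a marker of terminal effector Tregs, had 77.6 CPM in WT and 7.16 in KO, a ratio of 0.0923 (0.0190 to 0.271). Foxp3 had 48.2 and 23.9 CPM, a ratio of 0.495 (0.236 to 0.918). The 12 effector markers summed to 6017 CPM in WT and 4442 CPM in KO. The list of 4 gamma-delta T cell genes summed to 17.8 and 40.6 CPM, with Trdv4 at 0 in KO. The part of that cell type in the KO values was not tested.

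In the other 4 named states most of the receptors were lower in KO. In resting barcodes Cxcr3 had 10.7 CPM (8.79 to 12.8) in WT and 1.81 CPM (1.27 to 2.49) in KO, a ratio of 0.169 (0.113 to 0.248). Cxcr5 had 5.62 and 1.61 CPM, a ratio of 0.287 (0.181 to 0.446), and Ccr4 had 4.67 and 1.86 CPM, a ratio of 0.398 (0.253 to 0.620). Of 5 receptors counted in resting barcodes, 4 were at least 2-fold lower, against 2.13% of all genes. The erythroid-like level was 4.57 CPM (2.36 to 7.99) for Cxcr3 in WT and 0.845 CPM (0.102 to 3.05) in KO. WT resting Cxcr3 was thus above the level in a cell type that should lack it. KO resting Cxcr3 was not separated from the KO erythroid-like level, in barcodes that also held T cell RNA, as given above. Without thinning, Ccr4 and Cxcr5 were each found in 0.685% of KO resting barcodes. In KO erythroid-like barcodes they were found in 0.642% (0.133 to 1.87) and 0.214% (0.00542 to 1.19). The WT shares were 1.95% and 2.52% in resting, and 0.704% (0.0854 to 2.52) and 0.352% (0.00891 to 1.95) in erythroid-like barcodes. The part of this level in the resting ratios was not tested. WT resting Ccr2, at 3.53 CPM (2.48 to 4.86), was not separated from the WT erythroid-like level of 2.67 CPM (1.07 to 5.49).

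Ccr6 and Ccr8 did not follow this pattern in resting barcodes. Ccr6 had 3.91 CPM in WT and 3.03 in KO, a ratio of 0.775 (0.514 to 1.18). Ccr8 had 4 UMIs in WT and 20 in KO, 0.381 (0.104 to 0.976) and 0.977 CPM (0.597 to 1.51), a ratio of 2.56 (0.859 to 10.3).

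In activated barcodes Cxcr3 had 28.0 CPM in WT and 2.28 in KO, a ratio of 0.0812 (0.0489 to 0.128), and Cxcr6 had 8.01 and 0.975 CPM, a ratio of 0.122 (0.0524 to 0.252). Ccr4 had 13.6 and 3.47 CPM, a ratio of 0.255 (0.164 to 0.390). Of the 5 named states, Ccr6 had its highest WT level here, with 15.2 CPM (12.1 to 18.7) against 8.78 (6.97 to 10.9) in KO, a ratio of 0.579 (0.423 to 0.793). Outside these states, 42 WT B cell-like barcodes held 8 Ccr6 UMIs, 45.0 CPM (19.4 to 88.7). Of the named states Ccr8 was also highest in WT here, with 43 UMIs or 7.49 CPM (5.42 to 10.1) in WT and 48 UMIs or 5.20 CPM (3.84 to 6.90) in KO, a ratio of 0.695 (0.451 to 1.07). Cxcr5 had 7.31 and 4.23 CPM, a ratio of 0.578 (0.364 to 0.915). Of 6 receptors counted, 3 were at least 2-fold lower, against 2.89% of all genes.

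Cxcr3 had its highest WT level in mitotic barcodes, 128 CPM (121 to 137), and in S-phase barcodes stood at 93.3 CPM (87.2 to 99.8), not separated from the effector level. The KO levels were 23.0 CPM (17.7 to 29.4) and 4.68 CPM (3.26 to 6.50), with ratios of 0.179 and 0.0501. Ccr2, Ccr4 and Cxcr5 were lower in both cycling states, with ratios from 0.0588 to 0.339. Cxcr6 had 10.3 and 7.08 CPM in S phase, a ratio of 0.688 (0.482 to 0.973), and 16.5 and 5.39 CPM in mitosis. Ccr6 did not differ beyond its interval in either, with ratios of 1.03 (0.590 to 1.80) and 1.04 (0.469 to 2.15). Of 7 receptors counted in S phase, 5 were at least 2-fold lower, against 3.42% of all genes, and of 6 counted in mitosis 6 were, against 5.51%. These counts by state, like those of the other states, are a description only.

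**Figure D3:**
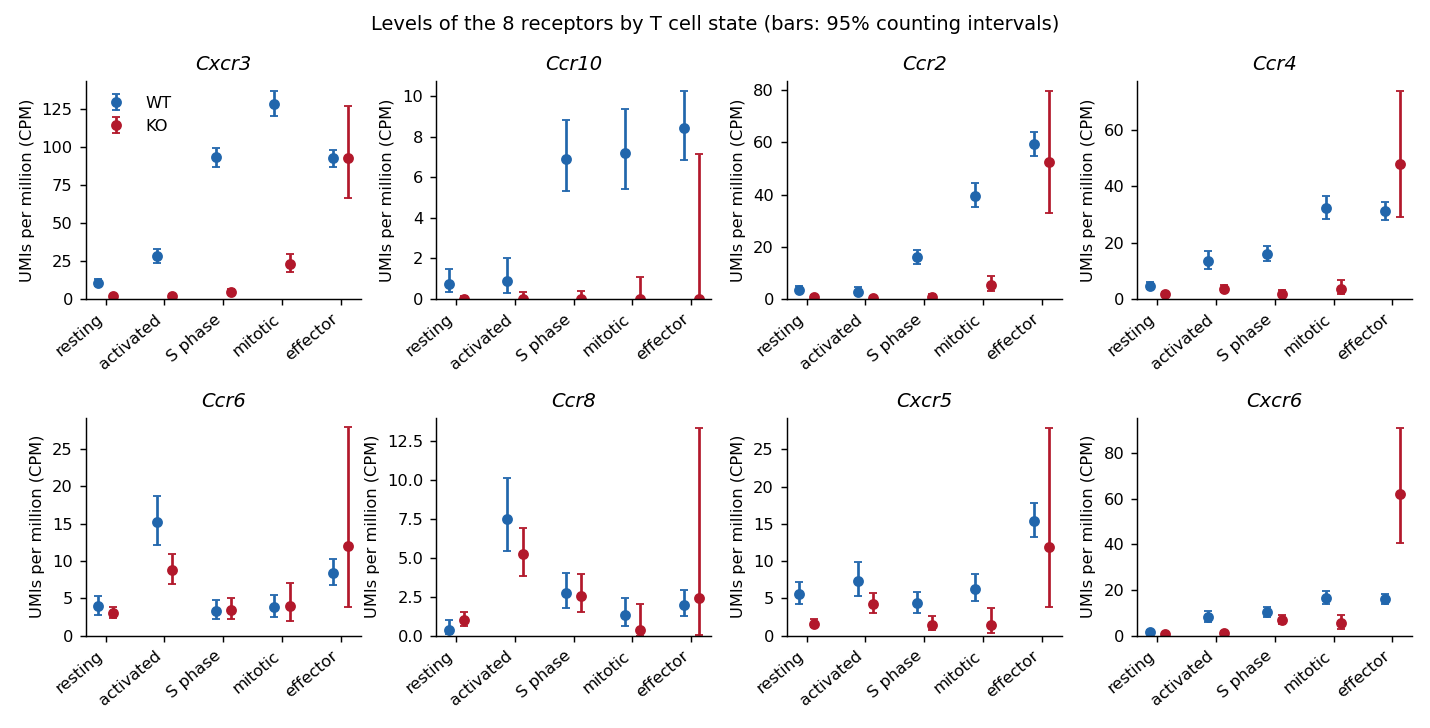
CPM of the 8 receptors in 5 T cell states, WT in blue and KO in red, with exact Poisson 95% intervals as bars (for 0 UMIs, up to the limit of 3 UMIs) and a linear axis from 0 in each panel. Cxcr3 is at 92.5 CPM in WT and 93.1 in KO in the effector state, where KO rests on 63 barcodes, and lies apart in the other 4 states, whereas Ccr6 and Ccr8 in WT are highest, of these 5 states, in activated barcodes.

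How far the difference lies within or between states was described by weighting KO levels by the WT shares of UMIs per state. The summed ratio was then 0.599 (0.517 to 0.694), against 0.145 as measured. It was 1.03 with finer clusters and 0.985 with coarser ones, so this value depended on the clustering. With WT and KO levels both weighted by the KO shares it was 0.262 (0.236 to 0.290), and 0.123 (0.103 to 0.146) for Cxcr3. By gene the ratio at WT shares was 0.416 (0.321 to 0.539) for Cxcr3, 0.553 (0.377 to 0.811) for Ccr2, 0.718 (0.489 to 1.05) for Ccr4, 0.979 (0.628 to 1.52) for Ccr6, 0.884 (0.469 to 1.66) for Ccr8 and 0.547 (0.301 to 0.994) for Cxcr5. Cxcr6 came to 1.77 (1.25 to 2.50), and Ccr10 stayed at 0. At WT shares the effector cluster has a weight of 25.1%, and its KO levels come from 63 barcodes. The summed ratio and those of Cxcr3 and Cxcr6 thus rest largely on these barcodes. With finer clusters KO Cxcr3 had 120 CPM in a cluster of 50 KO barcodes and 239 CPM in one of 20. The intervals cover counting error alone.

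Finer clusters split the cycling barcodes, and part of the KO deficit there with them. A fine cluster with 12 of 12 effector, 9 of 10 S-phase and 9 of 10 mitotic markers raised held 588 WT and 20 KO barcodes. Cxcr6 had 17.9 and 52.1 CPM there, a ratio of 2.91 (1.47 to 5.26) from 132 and 12 UMIs. Cxcr3 had 134 and 239 CPM there, a ratio of 1.78 (1.33 to 2.34). These 20 KO barcodes held 55 of the KO Cxcr3 UMIs, and the interval treats these UMIs as independent. In the KO mitotic cluster 64 Cxcr3 UMIs lay in 18 barcodes, and 1 of them held 11. A second with 11 of 12 effector, 10 of 10 S-phase and 10 of 10 mitotic markers held 416 and 68 barcodes. Cxcr3 had 107 and 19.4 CPM in this second cluster, a ratio of 0.182 (0.117 to 0.271). In that cluster Ccr6 had 3.78 and 11.7 CPM, a ratio of 3.08 (1.55 to 5.88), and Cxcr6 11.96 and 29.5 CPM, a ratio of 2.47 (1.65 to 3.62).

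**Figure D4:**
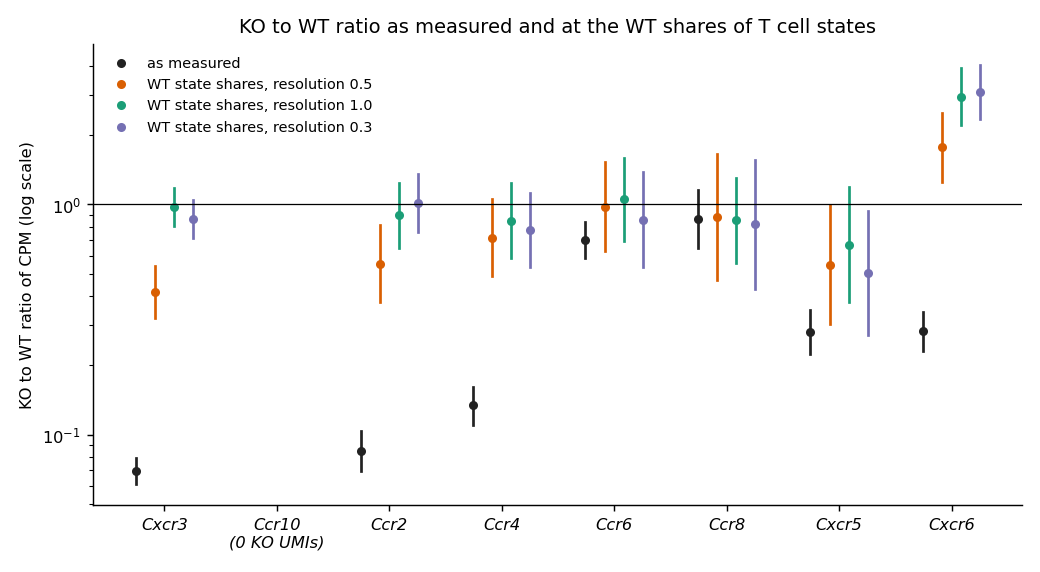
KO to WT ratio of CPM on a log axis for each receptor as measured (black) and with levels weighted by the WT shares of UMIs per state at clustering resolutions 0.5 (orange), 1.0 (green) and 0.3 (purple), with 95% intervals as lines. Cxcr3 goes from 0.0696 to 0.416, 0.978 and 0.865, Ccr8 stays between 0.820 and 0.884, and Ccr10, with 0 KO UMIs, has no point. At resolution 0.5 the KO effector-like levels weighed here come from 63 barcodes.

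Among WT effector-like barcodes the receptors differed in the company they kept. Each barcode was thinned to 3000 UMIs and the share with one receptor compared between barcodes with and without another. Ccr2 was found in 47 of 296 barcodes with Cxcr3, 15.9% (11.9 to 20.6), and in 9.80% of those without, a difference of 6.08 points (1.97 to 10.9). Cxcr6 was found in 19 of 174 barcodes with Ccr2, 10.9% (6.70 to 16.5), and in 2.68% of those without, a difference of 8.24 points (4.30 to 13.8). Ccr10 was found in 8.05% of barcodes with Ccr2 and 1.55% without. For Ccr6 and Cxcr5 the interval of the difference lay below 0 against 1 of these 2 partners and covered 0 against the other. Ccr6 was found in 0.676% of barcodes with Cxcr3 and 3.09% without, a difference of -2.41 points (-3.60 to -0.478), but in 1.72% with Ccr2 and 2.75% without, a difference of -1.03 points (-2.53 to 2.28). Cxcr5 was found in 0.575% of barcodes with Ccr2 and 4.23% without, a difference of -3.66 points (-4.93 to -0.887), and in 5.07% with Cxcr3 and 3.55% without, a difference of 1.52 points (-0.767 to 4.76).

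Klrg1 divides WT effector-like barcodes in the same data. Among 205 with a Klrg1 UMI at this depth Ccr2 was found in 28.3% (22.2 to 35.0), against 8.36% without, and Ccr4 in 12.7% against 7.64%. Cxcr3 was found in 22.9% and 18.0%, a difference of 4.97 points whose interval (-0.659 to 11.5) covers 0. Barcodes of 1 library are not replicates, and a barcode without a UMI may hold the transcript.

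**Figure D5:**
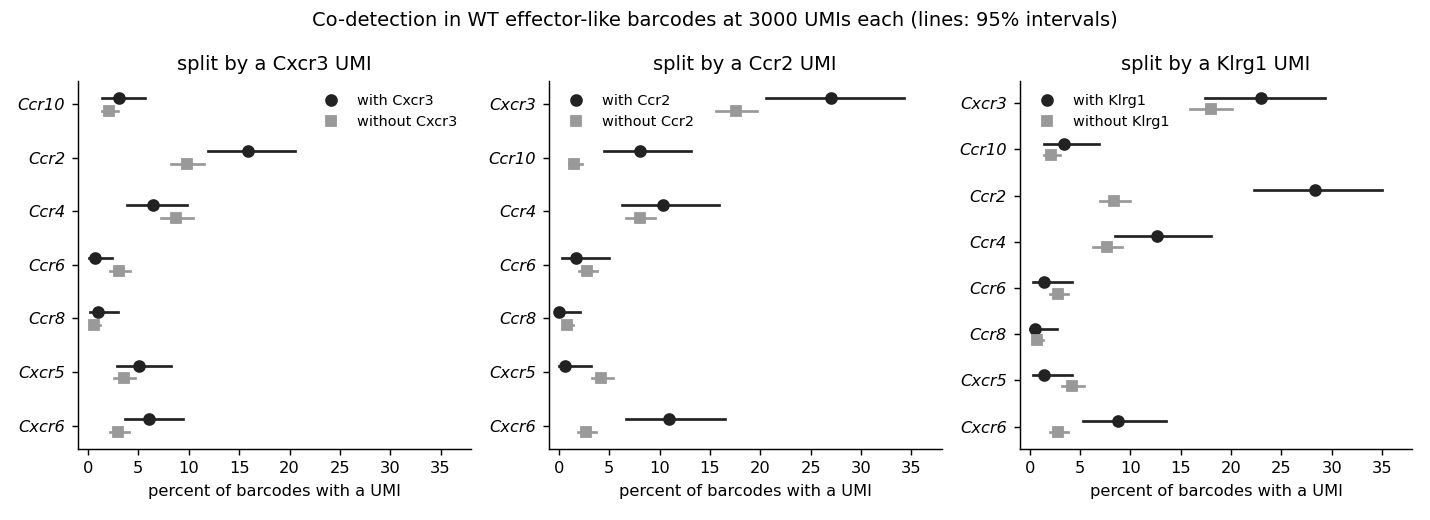
Percent of WT effector-like barcodes, thinned to 3000 UMIs, with a UMI of the receptor at left, in barcodes with (black) and without (grey) a UMI of Cxcr3, Ccr2 or Klrg1, and exact 95% intervals as lines. Ccr2 was found in 28.3% of barcodes with Klrg1 and 8.36% without, and Ccr6 in 0.676% with Cxcr3 and 3.09% without.

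Other genes of the pathway were counted from lists. Of 18 other chemokine and trafficking receptors, 10 reached 50 UMIs, of which 3 were at least 2-fold lower and 2 at least 2-fold higher in KO T-lineage barcodes. Those lower included Ccr3, a receptor best known on eosinophils (98 and 2 UMIs, 0.0197), and the oxysterol receptor Gpr183 (0.499, 0.468 to 0.533). The highest ratios were those of the neutrophil receptor Cxcr2 (12 and 41 UMIs, 3.30), the lymph node homing receptor Ccr7 (55.5 and 142 CPM, 2.57) and the gut homing receptor Ccr9 (1.60). The neutrophil gene list was also higher in KO, as given above, and its part in the Cxcr2 counts was not tested. The median ratio of the 10 was 1.04, against 0.207 for the 8 receptors described here and 0.954 for all 12122 genes. Since the 8 were chosen by these values, nothing is read from this contrast.

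Of 15 ligands of these receptors, 3 reached 50 UMIs in T-lineage barcodes. Ccl1, the ligand of Ccr8, had 761 UMIs in WT and 37 in KO, a ratio of 0.0469 (0.0328 to 0.0652). Cxcl10, a ligand of Cxcr3, was counted 488 times in WT and 1251 times in KO, with a ratio of 2.47 (2.23 to 2.75), and 6.86 and 33.3 CPM in resting barcodes. Ccl27a had a ratio of 1.08 (0.917 to 1.27). Over T-lineage barcodes Cxcr3 and Cxcl10 thus did not share a direction. By state the Cxcl10 ratio was 2.67 in effector, 2.67 in activated and 2.53 in S-phase barcodes. In mitotic barcodes it was 0.896 (0.581 to 1.35), which covers 1. Ccl1 was lower in KO, whereas its receptor Ccr8 did not differ beyond its interval.

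Of 17 genes of receptor signalling, all reached 50 UMIs, and none was 2-fold lower or higher. The lowest ratios were those of the Rac exchange factors Prex1 (0.521) and Tiam1 (0.575) and of the kinase subunit Pik3cg (0.591), and the highest were those of Rgs1 (1.26) and Rgs16 (1.26), which turn receptor signals off, and of the receptor kinase Grk6 (1.15).

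The transcription factors listed with these receptors differed among themselves. Maf had 85.4 CPM in WT and 16.0 in KO, a ratio of 0.187 (0.173 to 0.202), Prdm1 a ratio of 0.252 and Rora of 0.321. Tbx21, which encodes the Th1 factor T-bet, had 7.20 and 4.21 CPM, a ratio of 0.585 (0.489 to 0.698). In resting barcodes Tbx21 had 20 and 43 UMIs, 1.91 and 2.10 CPM, a ratio of 1.10 (0.635 to 1.98). The part of these factors in the receptor levels was not tested. Bcl6 had a ratio of 0.659, Batf of 0.712, Ahr of 0.779, Id2 of 0.873, Irf4 of 0.928, Gata3 of 0.985 and Klf2 of 1.33. Within effector-like barcodes Maf had 141 and 191 CPM, a ratio of 1.35 (1.07 to 1.69), whereas its ratios in the other 4 named states ran from 0.121 to 0.516. Id2 (3.48, 2.55 to 4.65) and Gata3 (2.17, 1.77 to 2.65) were also higher in KO effector-like barcodes. Rora (0.603, 0.380 to 0.909) was lower there, and the intervals of the remaining factors covered 1.

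The genes whose levels ran most alike were taken over 25 sums of cluster by library, which share libraries and depth, from 10536 genes. For Cxcr3 they were Atxn1 (Pearson r of log2(CPM + 1), 0.89), Angptl2 (0.88) and S100a4 (0.87). For Ccr10 they were Klrg1 (0.82), Gm15655 (0.81) and Insyn2b (0.81), for Ccr2 Fut7 (0.87), Ifng (0.86) and Padi2 (0.83), and for Ccr4 they included Galm (0.90) and Maf (0.87). For Ccr6 they were Hivep3 (0.82), Cd83 (0.81) and Batf (0.79), for Ccr8 Tnfsf11 (0.76), Penk (0.73) and Bik (0.72), for Cxcr5 Slc35f2 (0.86), Zhx2 (0.86) and Egr3 (0.86), and for Cxcr6 Cst6 (0.83), Ass1 (0.83) and Tshz2 (0.82). Among the receptors themselves, Cxcr3 was most alike to Cxcr6 (0.75), Ccr2 (0.74) and Ccr10 (0.73) and least alike to Ccr6 (0.26).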

How the data were processed

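Splenic YFP+ Tregs of 1 WT and 1 KO library were read with a droplet 3′ assay. The authors aligned reads to mm10 with Cell Ranger 5.0.1, per the submitters' processing notes, and deposited a matrix of raw UMI counts for each library, used here as counts. Kept were barcodes of 300 genes or more whose mitochondrial share was 5% or less. Doublets were scored with the Scrublet routine of scanpy 1.11.5 on all barcodes, and the top 5% of WT and 8% of KO scores were left out, 227 and 988 of the barcodes that passed both filters. The 2000 most variable genes, without the receptors and markers, gave 30 principal components (scikit-learn 1.9.0), 20 neighbours and Leiden clusters at resolution 0.5 (igraph 0.11.9). Clusters below 50% of the median CPM of T cell genes were set apart as other lineages, a limit set after the clusters were seen that left out a B cell-like cluster of 42 WT and 29 KO barcodes.

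UMIs were summed per library and cluster. Sums carry exact Poisson intervals, ratios exact conditional binomial intervals, shares exact Clopper-Pearson intervals and, for their differences, Newcombe's method, all at the 95% level, and weighted ratios carry intervals from the normal approximation on the log scale. These cover counting error alone and treat UMIs as independent, and no test was run, since each genotype has 1 library. Limits for 0 UMIs are 3 UMIs per sum. The genes named were all 8 receptors, 12 transcription factors, and of each other list the 3 highest and 3 lowest ratios among genes with at least 50 UMIs, and a few genes that this rule picks are not reported here. Ratios and intervals were tried on simulated, independent Poisson sums of well-counted genes over all kept barcodes. That setting has no clumping of UMIs in barcodes and no small sums. It therefore does not bear on the intervals of the effector-like cluster. The receptors, lists and tests were chosen with earlier results of these data known. Alternatives covered the filters, doublets, thinning, averaging, clustering and barcode set.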

Additional observations from a re-analysis of the deposited data

Results flagged for a closer look

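Cxcr6 stood out because its KO to WT ratio lay above 1 in one state and below 1 in the 4 others. The ratio was 3.88 (2.47 to 5.87) in effector Treg-like barcodes, against 0.410 (0.175 to 0.939) in resting, 0.122 (0.0524 to 0.252) in activated, 0.688 (0.482 to 0.973) in S-phase and 0.327 (0.178 to 0.559) in mitotic barcodes. The difference between states was not tested. In fine clusters with 11 or 12 of 12 effector markers raised the ratio was 4.39 (2.79 to 6.64), 2.91 (1.47 to 5.26) and 2.47 (1.65 to 3.62). These held 50, 20 and 68 KO barcodes, and 26, 12 and 38 KO Cxcr6 UMIs. Fine clusters divide the same barcodes anew, so these ratios are not separate from those above. The first holds as many KO Cxcr6 UMIs as the effector-like cluster. In the KO S-phase and mitotic clusters the 53 and 15 Cxcr6 UMIs lay in 18 and 7 barcodes. In a fine cluster with 6 of 8 activated markers raised it was 0.141 (0.0636 to 0.281). In KO effector-like barcodes 14 of the 26 UMIs came from 1 barcode, and without that barcode, an alternative chosen after seeing the data, the ratio was 1.88 (0.953 to 3.36).

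Ccr8 stood out among barcodes outside the comparisons, those with over 5% mitochondrial UMIs. It had 15 UMIs or 1.66 CPM in 5969 WT barcodes and 36 UMIs or 5.55 CPM (3.89 to 7.69) in 3901 KO barcodes, a ratio of 3.34 (1.79 to 6.57), whereas its T-lineage ratio was 0.865 (0.650 to 1.15). These barcodes were not sorted into states, and the part of their makeup in this ratio was not tested.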

How the results depend on the processing

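Of the 7 genes with KO UMIs, all except Ccr8 kept a ratio below 1 under each of 9 alternatives, and Ccr8 ran from 0.823 to 1.10. Ccr10 stayed at 0 or reached at most 0.00404. Ccr2 moved most, from 0.0612 in the named T cell states, an alternative chosen after seeing the data, to 0.227 over all kept barcodes, where the myeloid progenitor-like cluster enters. The summed ratio of 0.145 became 0.167 without a mitochondrial filter, 0.157 with a filter of 10%, 0.179 over all kept barcodes, 0.168 on sums thinned to 1000 UMIs and 0.212 without Cxcr3. The difference in the share of barcodes with a UMI was -4.45 points after thinning to 500 UMIs, -15.3 after thinning to 2000 and -27.8 without thinning, which follows from the depth kept. The ratio at WT state shares of 0.599 became 0.262 at KO state shares, 0.985 at resolution 0.3 and 1.03 at resolution 1.0, where it turned, and the cause was not tested. No paired analysis was possible because each genotype has 1 library. The KO effector-like values, and with them much of the ratio of 0.599 at WT state shares, rest on 63 barcodes. This limits what can be told apart there.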
